A study of Mus musculus with 8 samples.

Results

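Conventional dendritic cells of the spleen, the antigen-presenting cells that carry MHC class II molecules at a high level and depend on the growth factor receptor Flt3, were described in mice bearing an oropharyngeal carcinoma. They were selected on their own transcripts in the spleen library: a cell was a member when H2-Aa, H2-Ab1, H2-Eb1 and Cd74 together made up at least 0.5% of its gene UMIs (unique molecular identifiers, counts of captured RNA molecules), when it had at least 1 UMI of Flt3, and when it had none of Siglech or of the B cell gene Cd79a. This gave 617 cells of 6105 in the spleen library and of 20012 in all 4 libraries. They were set against 420 classical monocytes of the same library, which had at least 2 UMIs of Ly6c2, at least 1 of Ccr2 and of Csf1r, and none of Flt3.

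The mice were female C57BL6/J animals, WT or with a gene knockout named in the labels as Genotype_02, and all had received MOPC cells, a mouse oropharyngeal carcinoma line, under the skin of the flank (the treatment label reads MPOC tumor). Cells of each organ were stained with 18 surface antibodies carrying DNA tags and with hashtags, tagged antibodies that mark the mouse, pooled and run as 1 10x Genomics library an organ. The labels do not tie a hashtag to a genotype, so WT and knockout cells could not be told apart, and every value below mixes them. The sort kept living cells that were Gr1+ and negative for NK1.1, FcRe, Ter119, B220 and CD3, or Gr1- and cKit+. The share of dendritic cells, their Kit transcript and their ckit antibody were therefore set in part by the sort, and so was the Ly6C antibody, since Gr1 reagents bind Ly6 proteins.

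Conventional dendritic cells arise in the bone marrow from progenitors that need Flt3, and in the mouse spleen fall into 2 main kinds. Type 1 cells depend on Irf8 and Batf3, carry Xcr1 and Clec9a, and are known for taking up dead cells and showing their antigens to CD8 T cells on MHC class I molecules (cross-presentation). Type 2 cells carry Sirpa and often CD11b, and are known for presenting antigen to CD4 T cells on MHC class II molecules. Classical monocytes are Ly6C-high blood cells that share the myeloid origin but express neither program at a high level.

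The spleen library held 50111292 gene UMIs. The dendritic cells had a median of 15394 UMIs and 3801 genes per cell, the monocytes 12058.5 UMIs and 3476.5 genes. Their 5% to 95% range of depth was 6014.8 to 38234.4 UMIs. A hashtag could be assigned to 540 of the dendritic cells and 339 of the monocytes; 12.2% of dendritic cells and 18.8% of monocytes carried several hashtags, against 7.49% of all spleen cells, and stayed out of every comparison over hashtags. Of the members, 2 had a barcode that also occurred in another library. Cells with transcripts of another cell class (S100a8 and S100a9 or hemoglobin genes at 1% of UMIs or more, or at least 2 UMIs of 6 B and T cell genes) made up 106 of the dendritic cells (17.2%) and 91 of the monocytes (21.7%), and the results that leave them out are given where a call changed.

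Around the threshold, the lowest member had 0.507% of its UMIs in the 4 MHC class II genes, and the highest cell left out for this reason had 0.490%. Of the members, 28 lay under 1%, and 19 cells outside lay over 0.25%. The median was 2.85% in dendritic cells and 0.0106% in monocytes. Flt3 rested on 1 UMI in 109 members and on 2 or more in 508, and 227 further spleen cells met the MHC class II condition but had no Flt3 UMI.

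Across the 8 hashtags in use, dendritic cells were 10.3%, 12.9%, 14.7%, 8.68%, 2.67%, 7.61%, 6.64% and 6.81% of the spleen cells, in hashtag order. Hashtag 3 was highest and hashtag 5, with 14 dendritic cells, was lowest. The mean was 8.79% ± 3.80 (SD, n = 8 hashtags), and the pooled share was 10.1% (exact Clopper-Pearson 95% interval 9.36 to 10.9, counting error only). Monocytes made up 6.31% ± 1.83 of the cells. The comparison with monocytes used the 7 hashtags that had at least 20 cells of each class, all but hashtag 5, and each hashtag was taken to be 1 mouse. The p-values measure the spread between hashtags.

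The markers named for this class were H2-Ab1, Cd74, Flt3, Irf8, Cadm1 and Wdfy4. The members carry H2-Ab1, Cd74 and Flt3 by construction, since these are genes of the rule. Wdfy4 was seen in 95.8% of dendritic cells, but also in 70.7% of monocytes and 50.3% of neutrophils. Zbtb46, a transcription factor gene of the conventional dendritic cell lineage that the rule did not use, had at least 1 UMI in 73.1% of the 617 cells (95% interval 69.4 to 76.6). The same share was 0.508% in 3741 spleen neutrophils, which should lack the gene, at a median of 15394 UMIs per dendritic cell and 2954 per neutrophil. With each cell thinned to 2000 UMIs the shares were 23.7% and 0.262%. Cadm1 was seen in 38.9% of dendritic cells and 0.321% of neutrophils. Irf8 was seen in 64.8% of dendritic cells, 80% of monocytes and 4.17% of neutrophils (52.2%, 29.8% and 1.75% thinned), so a UMI of it does not part dendritic cells from monocytes. Irf8 and Cadm1 were read in a portion of the members, and their levels by subtype are given further on.

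Expression was summed over the cells of a class in each hashtag and scaled to 1000000 gene UMIs (CPM). In edgeR's quasi-likelihood test with the hashtag as a block, 8767 genes had the 100 summed UMIs needed, 1849 of them (21.1%) were higher in dendritic cells and 1938 (22.1%) were lower, at a Benjamini-Hochberg adjusted p under 0.05. The median log2 difference over all genes tested was 0.03, a value that scaling to total UMIs holds near 0. With 43.2% of genes called, a call alone says little about any member gene, and sizes are given throughout. The 21.1% and 22.1% are the shares to hold beside each count of a list against monocytes. Genes that were read only, or almost only, in dendritic cells entered the test through that level and had to differ. Genes used by either selection rule stayed in the fit, but their tests are not reported.

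The antigen presentation genes that the rule did not use were mostly higher in dendritic cells. Of 12 genes of the MHC class II pathway beyond those of the rule (chains, regulators and endosomal enzymes), 9 were higher and 2 were lower. Their median log2 difference was 2.21, and over all genes 21.1% were higher and 22.1% lower. The rule's own genes give the scale: H2-Ab1, the beta chain of I-A, lay between 5663 and 6509 CPM with a median of 6001 in dendritic cells, against 35.1 to 542 with a median of 190 in monocytes. Cd74, the invariant chain that guards the binding groove, lay between 11986 and 14036 CPM against 198 to 1417, H2-Aa between 5086 and 6391 against 44.2 to 478, and H2-Eb1 between 3871 and 5278 against 13 to 356. Flt3 was at 243 to 376 CPM in dendritic cells and was barred from monocytes by their rule. These are descriptions of the choice.

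Ciita (chr16:10480014-10531064), the coactivator that switches on MHC class II transcription, was at 413 CPM at the lowest, 465 at the median and 517 at the highest hashtag in dendritic cells, against 8.07, 24.4 and 34.2 in monocytes. No hashtag of one class overlapped the other (log2 difference 4.36 ± 0.16 SE, edgeR adjusted p = 9.32e-11). Rfx5, a subunit of the factor that binds the X box of MHC class II promoters, was read at low levels, at 13.8 CPM on average in dendritic cells and 3.75 in monocytes (1.74 ± 0.38, edgeR adjusted p = 0.00176).

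Promoter sequences of the MHC class II genes are shown because Ciita acts through a shared element upstream of them and these genes were high together. The X-like box was searched as CNNGNAAC and the Y box core as ATTGG, on both strands, in the 150 bases before each start in RefSeq's GRCm38.p6 promoter table; these 2 words share no bases as a pair, since a pair needed 10 to 30 bases between them on the gene's strand with the X-like box upstream. Of 9 genes looked for, 8 (without H2-Ab1) were in the table: 6 held the X-like box, 7 held ATTGG and 6 held the pair. Over all 32843 promoters of that length, 21.7% held the X-like box, 24.5% held ATTGG and 0.253% held the pair (83 promoters). The 6 with a pair follow, 5′ to 3′ on the gene's strand and ending at the base before the start, with the 2 words of the pair in capitals.
H2-Aa (chr17:34287824-34287973, minus strand): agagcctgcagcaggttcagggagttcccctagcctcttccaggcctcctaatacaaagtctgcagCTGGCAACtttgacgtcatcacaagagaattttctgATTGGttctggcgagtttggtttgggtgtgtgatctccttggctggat
H2-Eb1 (chr17:34305717-34305866, plus strand): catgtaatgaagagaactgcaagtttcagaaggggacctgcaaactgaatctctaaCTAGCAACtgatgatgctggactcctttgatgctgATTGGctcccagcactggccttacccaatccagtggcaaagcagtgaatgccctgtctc
H2-Eb2 (chr17:34325525-34325674, plus strand): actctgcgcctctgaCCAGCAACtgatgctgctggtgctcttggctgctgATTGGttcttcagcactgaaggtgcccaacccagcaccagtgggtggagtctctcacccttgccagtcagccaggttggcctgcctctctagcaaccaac
H2-DMb1 (chr17:34153041-34153190, plus strand): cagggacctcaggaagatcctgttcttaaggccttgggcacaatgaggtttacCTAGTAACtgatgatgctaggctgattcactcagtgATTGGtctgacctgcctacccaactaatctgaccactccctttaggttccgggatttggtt
H2-Oa (chr17:34092229-34092378, plus strand): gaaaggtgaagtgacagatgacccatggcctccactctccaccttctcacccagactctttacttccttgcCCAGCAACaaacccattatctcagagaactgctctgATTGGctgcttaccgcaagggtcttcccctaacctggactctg
H2-Ob (chr17:34238755-34238904, plus strand): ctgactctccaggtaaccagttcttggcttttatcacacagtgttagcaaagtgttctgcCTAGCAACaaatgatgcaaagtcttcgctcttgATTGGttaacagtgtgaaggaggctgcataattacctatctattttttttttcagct

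The 2 words were 28 bases apart in H2-Aa, H2-DMb1 and H2-Oa, 27 in H2-Eb1 and H2-Eb2, and 25 in H2-Ob. The X-like box of the pair read CTGGCAAC in H2-Aa, CTAGCAAC in H2-Eb1 and H2-Ob, CCAGCAAC in H2-Eb2 and H2-Oa, and CTAGTAAC in H2-DMb1. H2-DMb2 held ATTGG without the X-like box, and 2 entries of H2-DMa held neither word in these windows. A match is a description of the letters.

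The chains of H2-DM and H2-O and the second I-E beta chain gene were all higher in dendritic cells. H2-DMa and H2-DMb1 encode the alpha and a beta chain of the H2-DM exchanger, which loads peptide on MHC class II. H2-DMa was at 486, 561 and 652 CPM at the lowest, median and highest hashtag in dendritic cells, against 192, 212 and 268 in monocytes (1.34 ± 0.08, edgeR adjusted p = 4.91e-09). H2-DMb1 was at 376 to 560 CPM, against 57.2 to 91.4 in monocytes (2.68 ± 0.13), and H2-DMb2, the other beta chain gene, at 76.9 to 156 against 0 to 5.81 (5.03 ± 0.24). These beta chain genes are near-identical copies, so reads may be split between them. H2-Oa and H2-Ob, whose product H2-O restrains H2-DM, stood further apart. H2-Oa was at 99.4, 159 and 169 CPM against 0, 1.44 and 11.6 (5.89 ± 0.28), and H2-Ob at 82.2 to 135 against 0 to 4.03 (5.81 ± 0.30). H2-Eb2 had a mean of 21.9 CPM in dendritic cells and no UMI in monocytes, at least 33.7-fold higher against a floor of 3 UMIs over the monocyte sums.

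The proteases of the pathway went the other way. Ctss, cathepsin S, which trims the invariant chain, was at 456, 544 and 646 CPM in dendritic cells, against 1063, 1308 and 1700 in monocytes (-1.31 ± 0.10, edgeR adjusted p = 5.59e-08). Lgmn, legumain, another endosomal protease, was lower too (-1.15 ± 0.17). Ifi30, a thiol reductase of endosomes, had 798 CPM on average in dendritic cells and 937 in monocytes and was not called (-0.21, edgeR adjusted p = 0.0541). March1, the ubiquitin ligase that removes MHC class II from the surface, was 0.52 higher, a call that was lost when monocytes with neutrophil or progenitor genes were left out (adjusted p = 0.127).

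Of 18 genes of MHC class I and cross-presentation, 9 were higher and 4 lower (median 0.41), beside 21.1% and 22.1% over all genes. The count of lower ones was thus near the share over all genes. Rab43, a small GTPase needed for cross-presentation by type 1 cells in the mouse, had a mean of 456 CPM in dendritic cells and 78.4 in monocytes (2.56 ± 0.12, edgeR adjusted p = 4.22e-10). Psmb9 and Psmb8, immunoproteasome subunits, were higher by 1.59 and 1.02. Tap1 and Tap2, the peptide transporter, were higher by 0.84 and 1.22, but neither was called with cells thinned to 2000 UMIs (adjusted p up to 0.284 and 0.0735). B2m, the light chain of MHC class I, fell by 0.40, a call that was lost without the hashtag block (adjusted p = 0.163), and H2-K1 was not called. Cybb, the catalytic subunit of the phagocyte oxidase, was at 68.1 to 194 CPM in dendritic cells against 916 to 1412 in monocytes (-3.25 ± 0.16).

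**Figure D1:**
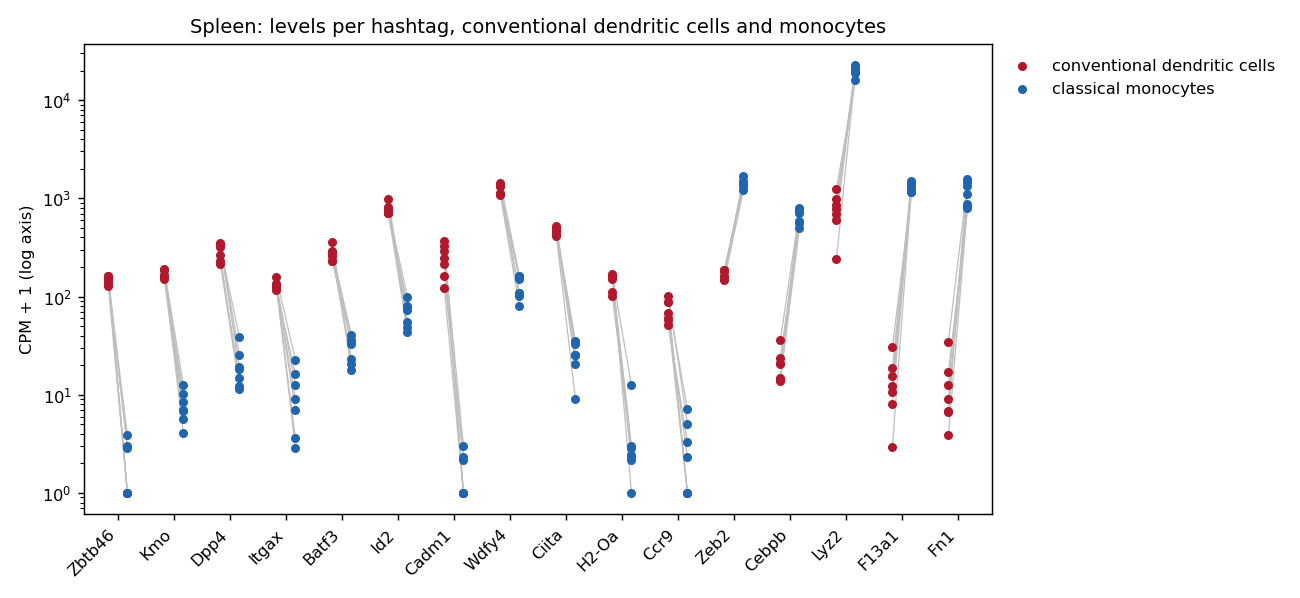
Expression per hashtag (7 hashtags) of selected genes in spleen conventional dendritic cells and classical monocytes, as CPM + 1 on a log axis; each point is 1 hashtag, and lines join the classes of a hashtag. Zbtb46, Cadm1 and Ciita lie above the monocytes at every hashtag, and Lyz2, Cebpb and Zeb2 lie below.

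Lineage genes separated the classes by wide margins. Of 16 genes of all conventional dendritic cells that were tested, 15 were higher, none was lower, and the median log2 difference was 3.87. Over all genes 21.1% were higher and 22.1% lower, and members read almost only in dendritic cells had to differ. Haao, one of the 15, lost the call in 8 alternatives. Zbtb46 (chr2:181371009-181493262) was at 127, 155 and 161 CPM at the lowest, median and highest hashtag in dendritic cells, against 0, 0 and 2.91 in monocytes. The monocyte sums held 3 of its UMIs in all, which gives a ratio of 201 (95% counting interval 68.7 to 976, edgeR log2 difference 7.36 ± 0.31). It passed the minimum of 100 UMIs through the dendritic cells, so no p-value is given. Itgax, which encodes CD11c, the integrin chain by which these cells are commonly stained, was at 116 to 156 CPM against 1.87 to 21.6 (3.81 ± 0.25). Dpp4, the surface peptidase CD26, was at 214 to 348 CPM against 10.4 to 37.5 (3.93 ± 0.16), and Kmo, kynurenine 3-monooxygenase of tryptophan breakdown, at 148 to 191 against 3.05 to 11.6 (4.59 ± 0.17).

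Further members of this list were Bcl11a, a transcription factor gene, at 256 to 301 CPM against 46.6 to 61.1 (2.35 ± 0.10), the surface receptor gene Slamf7 at 216 to 268 against 2.60 to 29.1 (4.58 ± 0.23), and Traf1, an adaptor of TNF receptor signalling (3.98 ± 0.31). Relb, a subunit of NF-kB, was higher by 1.81 ± 0.17, with the lowest dendritic hashtag, at 50.8 CPM, inside the monocyte range of 20.5 to 51.8. Kit was at 108 to 145 CPM against 0 to 8.72 (5.32 ± 0.27), and the sort took cKit+ cells.

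The type 1 genes followed. Of 23 tested, 22 were higher and 1 was lower, with a median of 3.68. The list's summed level was 5739 to 7681 CPM in dendritic cells and 786 to 1051 CPM in monocytes. Xcr1 (ENSMUSG00000060509, chr9:123852315-123862029), the receptor for the chemokine Xcl1, was at 200, 146, 168, 184, 124, 143 and 136 CPM in hashtags 1, 2, 3, 4, 6, 7 and 8. The monocyte sums held none of its UMIs, so it was at least 215-fold higher against a floor of 3 UMIs over the monocyte sums. Clec9a, a lectin that recognises actin exposed by dead cells, was at 134, 196 and 249 CPM against 0, 1.30 and 2.91 (7.39 ± 0.25).

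The regulators of type 1 cells were among them. Irf8 (chr8:120736358-120756694), which type 1 cells need throughout life, was at 785, 862 and 1195 CPM in dendritic cells and at 168, 244 and 356 in monocytes, where it also acts in development. The classes did not overlap (1.98 ± 0.14, edgeR adjusted p = 4.83e-08). Batf3, the partner that keeps Irf8 on, was at 230 to 358 CPM against 16.9 to 39.6 (3.31 ± 0.17), and Id2, an inhibitor of E proteins, at 700 to 991 against 42.7 to 98.0 (3.52 ± 0.15). Nfil3, a factor that type 1 cells of the mouse need early in development, was the lower member, at 3.78 CPM on average against 26.2 (-2.71 ± 0.33).

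Cadm1 (chr9:47530170-47862280), an adhesion molecule that binds Crtam on T cells, varied among hashtags, with 326, 244, 368, 293, 213, 120 and 161 CPM in hashtags 1, 2, 3, 4, 6, 7 and 8. Hashtags 7 and 8 were low, and every one lay above the monocytes, at 0 to 2.01 CPM from 3 UMIs (ratio 380, 95% counting interval 130 to 1846). Wdfy4 (chr14:32959547-33193855), which type 1 cells of the mouse need to cross-present, was at 1078, 1321 and 1428 CPM against 78.3, 107 and 161 (3.37 ± 0.12, edgeR adjusted p = 4.29e-11). Cd8a, which marks type 1 cells of mouse lymphoid organs, had a mean of 72.4 ± 26.0 CPM (SD, n = 7) and no UMI in monocytes, at least 107-fold higher.

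Type 2 genes were split, with 7 of 15 higher and 6 lower (median -0.34). Those higher included Cd209a, a lectin, at 17.5, 47.5 and 82.0 CPM against 0, 0 and 5.81 (5.48 ± 0.41), Cd4 at 3.82 to 34.1 against 0 to 2.88 (5.02 ± 0.55), Cd7 at 71.0 to 147 against 0 to 2.01 (7.51 ± 0.31), and Ltb, the lymphotoxin beta chain (2.71 ± 0.31). Those lower are genes that monocytes carry as well: Sirpa, an inhibitory receptor for CD47, was at 53.5, 80.5 and 112 CPM against 183, 227 and 255 (-1.36 ± 0.12), and Itgam (-2.80), Cx3cr1 (-3.12) and Klf4 (-1.83) were lower too. Notch2, also among the lower ones, lost the call in 7 alternatives. Irf4, a factor of type 2 cells, had 10.4 CPM against 14.6 and was not called (edgeR adjusted p = 0.344). Clec10a had 8.69 CPM against 15.4 and was not called either (adjusted p = 0.107).

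**Figure D2:**
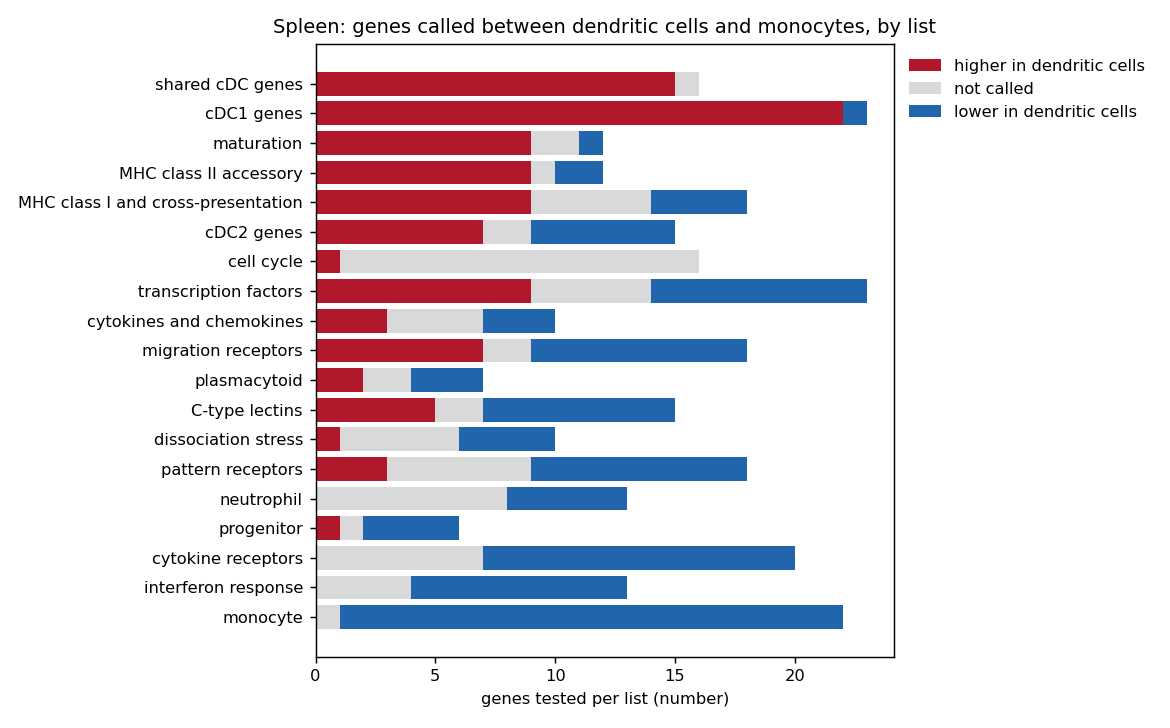
Counts of genes per list that were higher or lower in dendritic cells than in monocytes or not called (edgeR adjusted p under 0.05), for the lists with at least 6 genes tested; bar length is the number of genes tested. The type 1 list has 22 of 23 genes higher and the monocyte list 21 of 22 lower, beside 21.1% and 22.1% over all genes.

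The genes lower in dendritic cells were led by those of monocytes and their precursors. In the monocyte list 21 of 22 genes were lower, none was higher, and the median was -2.96. Lyz2, lysozyme, was at 239, 771 and 1246 CPM in dendritic cells, against 16140, 19674 and 22562 in monocytes (-4.80 ± 0.24). F13a1, a coagulation factor subunit, was at 1.95 to 29.7 CPM against 1148 to 1507 (-6.52 ± 0.27), Fn1, fibronectin, at 2.92 to 33.8 against 796 to 1564 (-6.45 ± 0.26), and Vcan, versican, at 0 to 5.74 against 125 to 602 (-8.03 ± 0.27). The receptor genes Cd14 (-3.63) and Fcgr1 (-4.19) were lower. The classes stood far apart in each of these genes.

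Among 23 transcription factors, 9 were higher and 9 lower. Cebpb, a factor of monocyte survival and activation, was at 12.6, 19.5 and 35.0 CPM against 496, 709 and 795 (-5.04 ± 0.17, edgeR adjusted p = 3.52e-11). Zeb2, a repressor, was at 148, 181 and 185 CPM against 1216, 1381 and 1700 (-3.07 ± 0.08, adjusted p = 9.77e-12). Cebpa (-2.28), of the granulocyte and monocyte path, was lower, and so was Spi1 (-0.56), which encodes PU.1. Runx3 and Rbpj, the partner of Notch, were each 1.14 higher.

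Ctsg, Mpo, Elane and Prtn3, granule protease and peroxidase genes of granulocyte and monocyte progenitors, were among the 12 largest falls (log2 differences from -8.30 to -7.43). They were uneven among monocytes, Elane running from 10.4 to 1107 CPM, and 190 of the 420 monocytes had at least 1 UMI of Elane, Prtn3 or Mpo, against 28 of the 617 dendritic cells. Neutrophil markers also differed: 5 of 13 genes of that list were lower and none was higher, its summed level was 388 to 10187 CPM in dendritic cells and 1467 to 21997 CPM in monocytes, and 76 monocytes met the neutrophil gate. Without the monocytes that held such genes, an alternative chosen after the data were seen, 2046 genes were higher in dendritic cells and 1703 lower, and 3 of the 5 neutrophil genes turned positive: Cxcr2 (0.037), Il1r2 (0.20) and Wfdc21 (2.38, edgeR adjusted p = 0.000263). These 3 calls were also lost in 3, 6 and 5 other alternatives. Immunoglobulin transcripts stood out in monocytes too, with Igkc at 16834 and 7679 CPM in hashtags 6 and 8 and 48.3 to 91.4 in the other 5, against 34.3 to 62.9 in dendritic cells. Without the cells that held transcripts of another class, 1732 genes were higher and 1862 lower.

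The largest rises outside the lists were in genes with little or no monocyte signal. Asb2, a ubiquitin ligase subunit that targets filamins, had no monocyte UMI and was at least 162-fold higher, P3h2, a collagen prolyl hydroxylase, at least 145-fold, and Ppp1r14a, an inhibitor of myosin phosphatase, at least 125-fold. Ccnd1, cyclin D1, was at 218, 284 and 354 CPM against 0, 0 and 1.44 (8.78 ± 0.24), and Adam23 at 103 to 449 against 0 to 1.15 (9.43 ± 0.26). Adam23 thus varied more than Ccnd1 among the hashtags of the dendritic cells. Dscam, Ccser1 and Ctnnd2, long genes, were in the same set.

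Of 18 receptors that sense microbes, 3 were higher and 9 were lower, of which Ifih1 lost the call in 9 alternatives. The higher ones were Tlr3, a sensor of double-stranded RNA, at 63.7, 86.6 and 121 CPM against 0, 1.30 and 5.81 (6.00 ± 0.34), and Tlr11 and Tlr12, which in the mouse sense profilin of Toxoplasma, at 41.8 to 86.6 against 0 to 5.81 (5.98 ± 0.36) and at 6.50 to 19.5 against 0 to 1.44 (5.04 ± 0.58). Lower ones included the RNA sensors Tlr7 (-3.08), Tlr8 (-3.89) and Tlr13 (-1.54) and the lipopeptide and endotoxin receptors Tlr2 and Tlr4 (both -1.90). Among C-type lectins 5 of 15 were higher and 8 lower, and the lower ones included Clec4a3 (-3.14), Clec4e (-3.58) and Clec5a (-4.40); members of the Clec4a family are close copies and reads may be split among them.

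Of 12 maturation genes, 9 were higher and 1 was lower (median 1.51). Cd86, which co-stimulates T cells through CD28, was at 115, 165 and 193 CPM against 30.3, 44.2 and 52.2 (1.89 ± 0.15, edgeR adjusted p = 1.07e-07). Cd83 was at 27.2 to 112 CPM against 0 to 3.46 (5.02 ± 0.28), and Icosl was 2.01 higher. Cd274, which encodes PD-L1, was 1.21 higher, a call lost without hashtag 6 (adjusted p = 0.0826), and Cd40 was not called (adjusted p = 0.186). The migration receptor Ccr7 was low, at 1.91 to 30.8 CPM against 0 to 15.9 (2.46 ± 0.58, adjusted p = 0.00331), and Fscn1, fascin, an actin bundler of migrating dendritic cells, at 1.18 to 24.8 against 0 to 3.05 (4.96 ± 0.66).

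Secreted factors were few. Of 10 cytokine and chemokine genes tested, 3 were higher and 3 lower. Cxcl9, a chemokine that draws Cxcr3+ T cells, was at 263, 63.6, 244, 176, 225, 89.9 and 39.0 CPM in dendritic cells of hashtags 1, 2, 3, 4, 6, 7 and 8, against 0, 8.72, 0, 92.6, 0, 16.8 and 0 in monocytes. Hashtags 2, 7 and 8 were low, and the monocytes of hashtag 4 overlapped the dendritic range (3.56 ± 0.60, edgeR adjusted p = 0.000215). Ccl5 was at 121, 104, 163, 52.0, 27.9, 9.56 and 20.1 CPM in the same hashtags, against 0 to 22.1 in monocytes (3.09 ± 0.55, adjusted p = 0.000357). Ccl6 (-3.07) and Ccl9 (-3.86) were lower. Il12b, a subunit of interleukin 12, had 82 UMIs in dendritic cells and 0 in monocytes, and Il6 and Il10 had 2 and 1 UMIs in dendritic cells; these were too few to test.

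Receptors for cytokines were lower or not called: 13 of 20 were lower and none higher, among them Csf2ra, the GM-CSF receptor alpha chain (-0.97), and the TNF receptor gene Tnfrsf1b (-3.20). Of 18 migration genes 7 were higher, such as Ccr9 at 49.8 to 101 CPM against 0 to 6.09 (5.23 ± 0.33) and Cxcr3 at 6.97 to 24.9 against 0 to 3.05 (3.96 ± 0.56), and 9 were lower, such as Cxcr4 (-1.60) and Ccr1 (-2.72). Interferon-response genes were lower in 9 of 13 and higher in none (median -1.54), but the summed levels overlapped, at 210 to 613 CPM in dendritic cells and 174 to 1087 CPM in monocytes. Of these 9 calls 6 were lost without the hashtag block (Isg15, Rsad2, Oas1a, Irf7, Xaf1 and Rtp4) and 4 under DESeq2 (Isg15, Rsad2, Irf7 and Oasl2). Cell cycle genes showed 1 call among 16, Cks1b at 1.05 higher, and Mki67, the proliferation marker, had 208 ± 47.0 CPM in dendritic cells and 167 ± 126 in monocytes (SD, n = 7) and was not called. Genes that respond to tissue dissociation were higher in 1 and lower in 4 of 10. The higher one was Jun, whose call was lost in 9 alternatives.

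Markers of other cell types were read in the same sums. Of 7 plasmacytoid genes tested, 2 were higher (Ccr9 and Runx2) and 3 lower, the Runx2 call being lost in 5 alternatives (adjusted p up to 0.346), while the list summed to 368 to 507 CPM in dendritic cells and 256 to 616 CPM in monocytes; Tcf4, the factor that defines plasmacytoid cells, was at 61.8 to 130 CPM against 71.5 to 116 (-0.00, edgeR adjusted p = 0.985). The spleen held 8 Siglech-high cells, too few for a comparison, and the sort excluded B220+ cells. B cell markers summed to 204 to 256 CPM in dendritic cells and 195 to 20118 CPM in monocytes (1 of 4 tested lower), T and NK markers to 8 to 129 against 1 to 95 (none of 1 called), erythroid markers to 6 to 11 against 0 to 189 (none had enough UMIs), and progenitor markers to 136 to 179 against 119 to 2806 (1 of 6 higher, Kit, and 4 lower). Of 3 macrophage genes tested, 2 were lower. S100a8, a neutrophil gene, ran from 125 to 3890 CPM over the dendritic hashtags, highest in hashtag 4, and was not called (adjusted p = 0.0626).

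Surface antibodies gave a readout that the rules did not use, though MHCII, Ly6C, CCR2 and CD115 are proteins of genes in the rules. Of 18, 5 were higher and 9 were lower in dendritic cells, by an exact sign-flip permutation test over 7 hashtags, two-sided, adjusted over the 18 antibodies. MHCII was at 541, 476, 552, 389, 613, 473 and 509 mean UMIs per cell in dendritic cells of hashtags 1, 2, 3, 4, 6, 7 and 8, against 38.6, 25, 27.2, 31.0, 18.7, 16.4 and 22.8 in monocytes. Every hashtag was higher in dendritic cells (507 ± 71.2 against 25.7 ± 7.53, SD, n = 7; exact p = 0.0156, the smallest that 7 pairs can give, adjusted 0.0234). CD24, the protein of Cd24a, was at 212, 160, 207, 122, 243, 213 and 317 UMIs, against 150, 69.0, 147, 57.8, 74.3, 63.4 and 110; it was higher in 7 of 7 hashtags, with overlapping ranges, at the same exact p.

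CD49d, the integrin alpha 4 chain, was at 96.3 ± 7.08 UMIs per cell in dendritic cells and 56.4 ± 4.34 in monocytes, and CD106, the adhesion molecule VCAM-1, at 5.39 ± 0.644 and 2.11 ± 0.899 (both SD, n = 7, higher in 7 of 7, adjusted exact p = 0.0234). The transcript Itga4 went the other way from its protein CD49d, at 376 to 617 CPM in dendritic cells and 534 to 817 in monocytes (edgeR log2 difference -0.35 ± 0.08, adjusted p = 0.00201). The ckit antibody was at 16.6 ± 1.35 against 1.96 ± 1.24, a value the sort shaped.

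Lower antibodies were those of monocytes. CD16/32, the Fc gamma receptors, was at 8.74 ± 2.25 UMIs per cell in dendritic cells and 73.4 ± 11.4 in monocytes, CD115, the product of Csf1r, at 4.18 ± 3.05 and 23.5 ± 2.88, CD44 at 439 ± 74.0 and 766 ± 139, CD14 at 2.62 ± 1.06 and 8.43 ± 2.29, and CD64 at 1.09 ± 0.243 and 2.30 ± 1.08 (each lower in 7 of 7, adjusted exact p = 0.0234). Ly6C, whose transcript is in the monocyte rule and which the sort touched, was at 24.7 ± 4.79 and 346 ± 63.4. CD11b (56.0 ± 16.2 and 93.0 ± 39.8) and CCR2 (0.704 ± 0.311 and 1.31 ± 1.01) were lower in 6 of 7 hashtags (exact p = 0.0313, adjusted 0.0402), and these 2 calls were lost in 6 of the 7 fits that left out a hashtag. CD11a, CD69, CXCR4 and CXCR2 were not called. CD64 and CCR2 were near the floor, with 0 UMIs in 50.9% and 57.7% of dendritic cells and in 26.0% and 46.7% of monocytes. Spleen neutrophils averaged 2.30 UMIs of CD14 and 0.881 of CD64, close to the dendritic cells. The median of all antibody UMIs per cell was 1395 in dendritic cells and 1799.5 in monocytes.

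**Figure D3:**
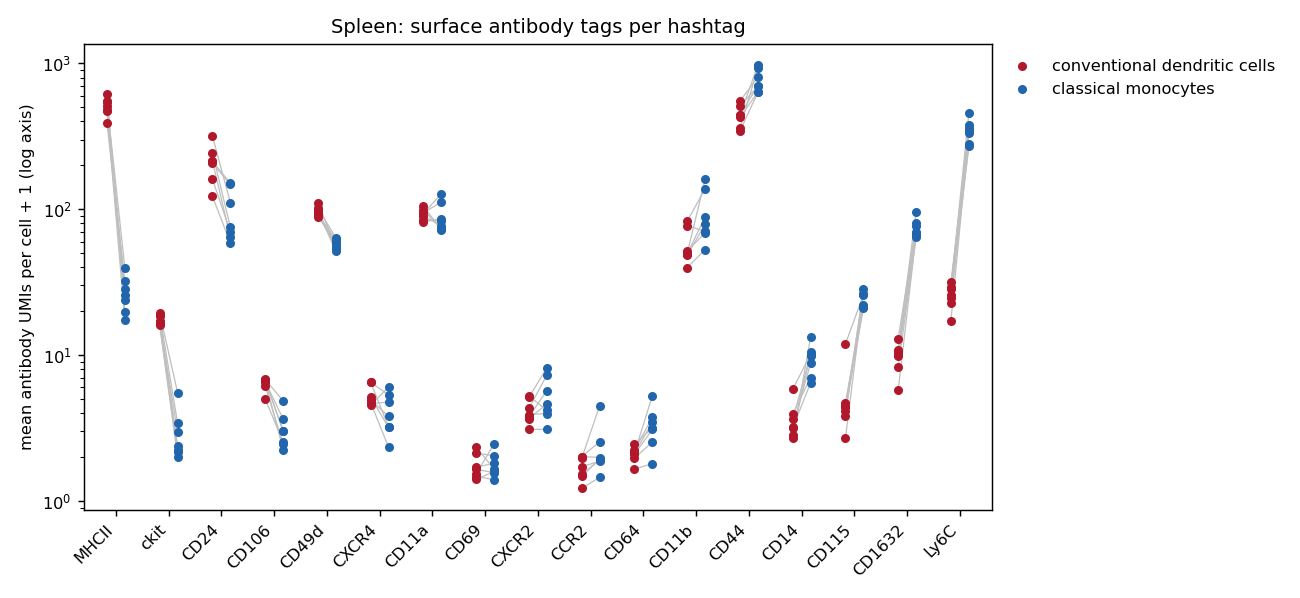
Mean antibody UMIs per cell in each of 7 hashtags for spleen dendritic cells and classical monocytes, plus 1 on a log axis; each point is 1 hashtag, and lines join the classes of a hashtag. MHCII separates the classes at 389 to 613 against 16.4 to 38.6, and CD16/32 and Ly6C lie the other way.

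The members were divided by the subtype genes of the rule. Cells with at least 1 UMI of Xcr1 or Clec9a and none of Cd209a or Clec10a (Xcr1/Clec9a cells) numbered 304, or 49.3% of the 617 (95% interval 45.3 to 53.3), and cells with the reverse (Cd209a/Clec10a cells) 95, or 15.4% (12.6 to 18.5). A further 40 cells (6.48%) had both, and 178 (28.8%) had neither. The sort took Gr1- cells only when they were cKit+, so these are shares of sorted cells. The ckit antibody had a mean of 22.6 UMIs per cell in Xcr1/Clec9a cells and 11.5 in Cd209a/Clec10a cells. How far the sort shaped the gate shares was not tested. Over hashtags the first share was 50.9% ± 8.25 and the second 15.6% ± 5.59 (SD, n = 8 hashtags). Depth moved these shares: the median was 19569.5 UMIs in Xcr1/Clec9a cells, 11638 in Cd209a/Clec10a cells, 19953 in cells with both and 10175 in cells with neither, and with 611 cells thinned to 2000 UMIs (6 shallower cells left out) the shares were 31.3%, 8.67%, 0.327% and 59.7%.

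The gate genes were far above background in these cells. Xcr1 was seen in 42.6% of the 617 cells and 0.187% of neutrophils (17% and 0.0582% thinned), Clec9a in 54.3% and 1.82% (22.3% and 1.05% thinned), and Cd209a in 19.6% and 0.134% (7.86% and 0.0582% thinned). Clec10a was seen in 5.67% of dendritic cells, 17.1% of monocytes and 0.535% of neutrophils. Of the cells with both kinds of gate gene, 32.5% carried several hashtags, against 13.5% of Xcr1/Clec9a cells and 10.5% of Cd209a/Clec10a cells.

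Xcr1/Clec9a cells were compared with Cd209a/Clec10a cells in hashtags 2, 3 and 6, which had at least 10 cells of each. In edgeR's quasi-likelihood test with the hashtag as a block, 533 of 5257 genes were higher in Xcr1/Clec9a cells (10.1%) and 616 were lower (11.7%), with a median log2 difference of 0.01 over all genes tested. These shares are to be held beside each count of a list between the gates. The gate genes, as chosen, were at 254 ± 9.20 CPM (Xcr1) and 325 ± 68.8 CPM (Clec9a) in the first and at 354 ± 62.7 CPM (Cd209a) and 65.4 ± 44.0 CPM (Clec10a) in the second. DESeq2 called 234 higher and 322 lower, and the values per hashtag in the next paragraphs are given in the order 2, 3 and 6.

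The Xcr1/Clec9a sums held 716047, 1889047 and 500533 UMIs and the Cd209a/Clec10a sums 223626, 371135 and 176517, so a gene read in the first gate alone could reach 100 UMIs more readily than a gene read in the second alone. Cd36, Tlr3 and Gcsam entered through the first gate only, and Cadm1 and Cd8a almost only. Cd4 and Clec4a4 did not enter, so the tallies of the type 1 and type 2 lists are descriptions that the filter shaped. The 20 type 1 genes tested were higher in Xcr1/Clec9a cells, with a median log2 difference of 3.75, and the list summed to 8409 to 8858 CPM against 1105 to 1420 CPM. Irf8 was at 1257, 1180 and 1414 CPM in Xcr1/Clec9a cells, against 35.8, 45.8 and 108 in Cd209a/Clec10a cells (4.44 ± 0.20, edgeR adjusted p = 9.81e-13). Cadm1 was at 416, 564 and 414 CPM against 8.94, 8.08 and 0 (6.19 ± 0.33). The markers named for the whole class, Irf8 and Cadm1, thus lay mostly in this gate.

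Batf3, at 275, 265 and 342 CPM against 71.5, 135 and 159 (1.27 ± 0.20), and Wdfy4, at 1436, 1870 and 1500 against 528, 639 and 510 (1.52 ± 0.11), differed by less and were present in both gates. Cd36, a scavenger receptor, was at 182, 162 and 122 CPM and had no UMI in Cd209a/Clec10a cells, at least 41.1-fold higher. Tlr3 was at 101, 132 and 102 CPM against none, at least 30.9-fold higher. The lysosomal enzymes Naaa, an acid amidase, at 616, 597 and 761 against 31.3, 51.2 and 51.0 (3.83 ± 0.20), and Ppt1, a thioesterase that removes palmitate, at 1268, 1239 and 949 against 85.0, 97.0 and 90.6 (3.67 ± 0.16), were higher as well.

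Cd8a was at 108, 141 and 136 CPM in Xcr1/Clec9a cells, against 0, 10.8 and 0 (4.63 ± 0.47), and Cd24a at 175, 135 and 174 against 13.4, 24.2 and 5.67 (3.21 ± 0.34). Cxcl9 was at 113, 347 and 438 CPM against 8.94, 10.8 and 39.7 (4.11 ± 0.31, edgeR adjusted p = 1.92e-09), so the chemokine noted above was read mainly in this gate. Cd86 was at 215, 222 and 234 CPM against 125, 40.4 and 96.3 (1.48 ± 0.26, adjusted p = 0.00016). Ccr9, a gut-homing receptor counted above with plasmacytoid genes, was at 83.8, 121 and 89.9 CPM against 8.94, 21.6 and 5.67 (2.87 ± 0.36). Clnk, Gcsam, P3h2 and Pdia5 had no UMI in Cd209a/Clec10a cells, with floors of at least 24.3-fold to 45.4-fold higher.

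In the type 2 list 5 of 8 genes tested were lower in Xcr1/Clec9a cells and 2 higher, with a median of -1.97. The 2 higher ones, Rbpj among them, went against the rest of the list, and each lost the call in 1 or 2 alternatives. Sirpa was at 6.98, 30.7 and 5.99 CPM in Xcr1/Clec9a cells, against 291, 288 and 198 in Cd209a/Clec10a cells (-3.94 ± 0.30, edgeR adjusted p = 2.92e-09). Ltb was at 11.2, 53.5 and 19.98 CPM against 295, 418 and 380 (-3.60 ± 0.26), Itgam at 9.78, 39.7 and 19.98 against 107, 202 and 108 (-2.58 ± 0.28), and Cd7 fell by 2.83. For Sirpa, Ltb and Itgam, every value in Xcr1/Clec9a cells lay under every value in the other gate. Cd4 and Clec4a4, which encodes DCIR2, were at 1.40, 5.82 and 4.00 against 80.5, 88.9 and 68.0 CPM and at 0, 2.12 and 0 against 49.2, 64.7 and 73.6 CPM, from too few UMIs to test.

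Regulators parted as well. Of 18 transcription factors 4 were higher and 10 lower in Xcr1/Clec9a cells. Among the lower ones, Spi1 and Bcl11a lost the call in 3 alternatives each, Etv6 in 2, and Tcf4, Klf4 and Cebpb under DESeq2. Among the higher ones, Rbpj lost it with sums of at least 5 cells. Zeb2, which type 2 and plasmacytoid cells of the mouse use, was at 14.0, 53.5 and 28.0 CPM against 671, 604 and 402 (-4.06 ± 0.26), and Relb at 16.8, 41.8 and 81.9 against 152, 283 and 249 (-2.46 ± 0.25). Ikzf1 (-1.15) and Runx3 (-1.14) were lower, while Id2 was higher by 2.15. Zbtb46 was at 127, 175 and 99.9 CPM against 143, 121 and 130 and was not called (0.07 ± 0.22, adjusted p = 0.864), and Dpp4 and Slamf7 were not called either. Of 16 genes of all conventional dendritic cells, 2 were higher and 5 lower, with a median of -0.09.

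Genes shared with monocytes were lower in Xcr1/Clec9a cells: 13 of 19 of the monocyte list were lower and 1 was higher, and the list summed to 2074 to 3246 CPM against 11041 to 11882 CPM. The higher one, Treml4, lost the call in 5 alternatives, F13a1 and Ly6c2 in 3 each, and Klf4, Cebpb and Hp in 1 each. Clec10a, a gene of the second gate, was seen in 17.1% of monocytes and 5.67% of dendritic cells. The CD115 antibody in Cd209a/Clec10a cells had a median of 4 UMIs and a 90th percentile of 28.8, beside a median of 20 in monocytes. S100a4, a calcium-binding protein gene, was at 165, 208 and 178 CPM against 2518, 2835 and 3088 (-3.92 ± 0.12, edgeR adjusted p = 5.06e-16). Lyz2 was at 412, 756 and 338 CPM against 2249, 2266 and 2600 (-2.29 ± 0.17), and Csf1r at 5.59, 16.9 and 9.99 against 179, 159 and 73.6 (-3.58 ± 0.34). The monocyte class itself had Lyz2 at 16140 CPM or more. Cybb (-4.08), Clec4a1 (-5.00), Clec4a3 (-4.84) and Sirpb1a (-5.28) were among the largest falls, the last 3 belonging to families of close copies.

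**Figure D4:**
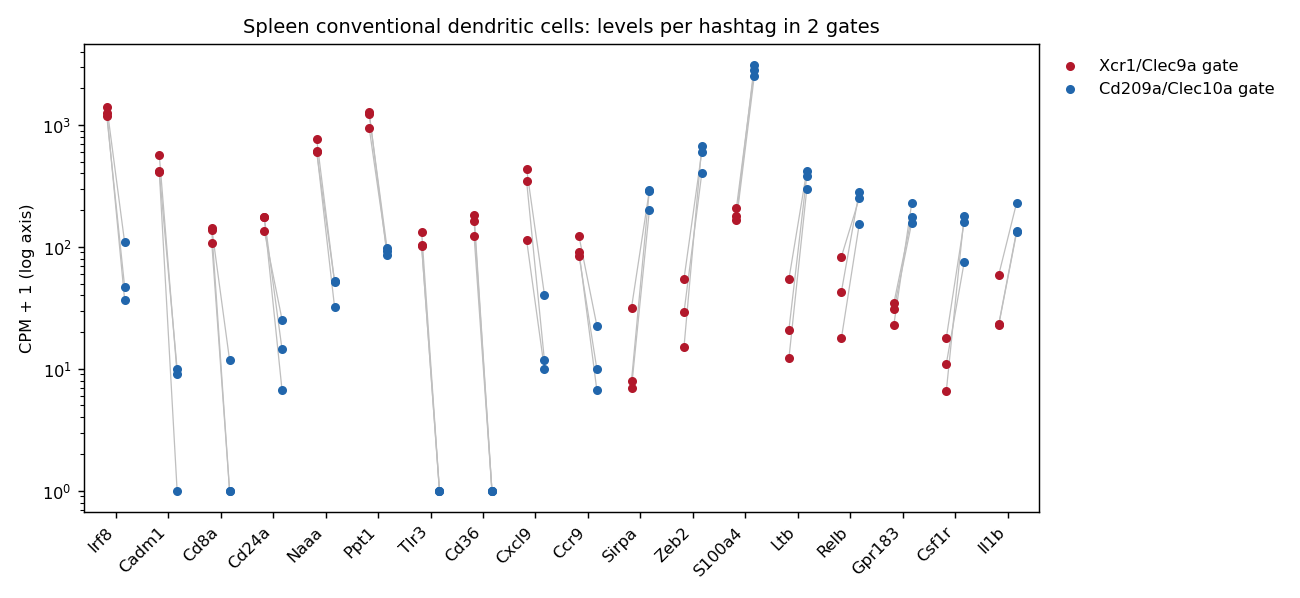
Expression as CPM + 1 on a log axis in Xcr1/Clec9a cells and Cd209a/Clec10a cells of hashtags 2, 3 and 6; each point is 1 hashtag, and lines join the gates of a hashtag. Irf8, Cadm1 and Naaa are higher and Sirpa, Zeb2 and S100a4 lower in Xcr1/Clec9a cells at every hashtag.

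Antigen presentation genes were called in both directions between the gates, where 10.1% of all genes tested were higher and 11.7% lower. H2-DMb2 was at 48.9, 57.2 and 29.97 CPM in Xcr1/Clec9a cells, against 188, 267 and 215 in Cd209a/Clec10a cells (-2.27 ± 0.22, edgeR adjusted p = 9.55e-08), and H2-Oa at 148, 97.4 and 83.9 against 241, 240 and 176 (-1.04 ± 0.20, adjusted p = 0.000427). H2-DMb1 was at 499, 444 and 537 against 407, 269 and 340 (0.56 ± 0.15, adjusted p = 0.00823), a call that 5 alternatives lost. H2-DMa, H2-Ob and Ciita were not called, Ciita being at 409, 503 and 364 CPM against 496, 453 and 510 (-0.18, adjusted p = 0.445). In all, 1 of 9 genes of the class II pathway was higher, near the share over all genes. The 4 lower ones included the enzyme genes Ctss (-1.19) and Ifi30 (-1.10). On the class I side 5 of 18 were higher, including Pdia3, a chaperone of peptide loading (1.55 ± 0.16), Rab43 (1.26 ± 0.15), Psmb9 (1.17 ± 0.15) and Psmb8 (1.07 ± 0.13), and 4 were lower, of which H2-D1 lost the call in 8 alternatives.

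Cytokine receptors that were called were all higher in Cd209a/Clec10a cells. Of 14 cytokine receptors tested 6 were lower in Xcr1/Clec9a cells and none higher, led by Il2rg, the common gamma chain, at 6.98, 20.1 and 22.0 CPM against 134, 132 and 113 (-2.95 ± 0.33). The calls of Tgfbr1, Tgfbr2 and Csf2rb were lost in 5, 3 and 1 alternatives. Gpr183, the oxysterol receptor that places type 2 cells in the mouse spleen, was at 33.5, 29.6 and 22.0 CPM against 174, 156 and 227 (-2.61 ± 0.25); of 10 migration genes 3 were lower, Gpr183 among them, and 1 was higher (Ccr9). Cd274 was at 0, 11.6 and 36.0 CPM against 71.5, 127 and 136 (-3.13 ± 0.42); of 9 maturation genes 4 were lower, Cd274 among them, and 1 was higher (Cd86). Ccl5 (-3.27 ± 0.33) and Il1b (-2.24 ± 0.24) were among 5 of 9 secreted factors that were lower, beside 11.7% over all genes, while Cxcl9 was higher. Cxcl10, also among the 5, lost the call in 4 alternatives and turned to 2.77 with gates of at least 2 UMIs.

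The remaining lists were counted between the gates as follows. Microbial receptors were higher in 2 (Tlr3 and Tlr11) and lower in 2 of 9, lectins higher in 2 and lower in 3 of 5, plasmacytoid genes higher in 1 and lower in 2 of 6, interferon genes lower in 1 of 4, and dissociation genes lower in 2 of 5. Cell cycle genes were higher in 3 of 14 (Stmn1, Tyms and Cks1b), each call lost under DESeq2, and Mki67 was not called (0.14 ± 0.38). Neutrophil genes were higher in 3 and lower in 7 of 11, with Camp at 19.6, 573 and 14.0 CPM in Xcr1/Clec9a cells against 13.4, 26.9 and 22.7, so hashtag 3 alone was high. The list summed to 1015 to 6820 CPM in Xcr1/Clec9a cells and 4275 to 8651 CPM in Cd209a/Clec10a cells. Without cells that held transcripts of another class, 411 genes were higher and 454 lower. None of 2 B cell genes or 1 progenitor gene was called, and no macrophage, T and NK or erythroid gene had enough UMIs.

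Dscam, a cell adhesion gene, was the member of the largest rises over monocytes that belonged to the second gate, at 0, 34.9 and 0 CPM in Xcr1/Clec9a cells against 505, 474 and 436 in Cd209a/Clec10a cells (-4.90 ± 0.42). Tmem176a (-4.44) and Tmem176b (-4.80), which encode membrane proteins, were lower in Xcr1/Clec9a cells. Tlr12 was at 18.2, 29.6 and 18.0 CPM in Xcr1/Clec9a cells with no UMI in the others, and Il12b at 0, 0 and 118 CPM, so its UMIs came from hashtag 6 among these 3; neither had enough UMIs to test.

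The 178 cells of neither gate, pooled over hashtags, had levels of Irf8, Sirpa, S100a4 and Ltb nearer to Cd209a/Clec10a cells than to Xcr1/Clec9a cells. Irf8 was at 146 CPM in them, 74.0 in Cd209a/Clec10a cells, 825 in cells of both gates and 1284 in Xcr1/Clec9a cells. In the same order, Sirpa was at 218, 253, 96.7 and 24.5 CPM, S100a4 at 2418, 2684, 775 and 197 CPM, and Ltb at 405, 311, 116 and 38.4 CPM. Zbtb46 was at 140, 137, 118 and 157 CPM, close in all 4. Ccr7 was at 70.9 CPM in cells of neither gate, against 6.36, 0 and 18.2, and Fscn1 at 92.9 against 40.6, 6.04 and 2.56, while Mki67 was at 294 against 118, 132 and 172. These pooled values have no replicate and no test.

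Antibodies on the 2 gates had 3 hashtag pairs, for which the smallest exact p is 0.25, so no call was possible (adjusted 0.375). CD24 was at 247, 323 and 398 mean UMIs per cell in Xcr1/Clec9a cells of hashtags 2, 3 and 6, against 50.4, 138 and 67.9 in Cd209a/Clec10a cells. CD11b was at 12.9, 46.2 and 26.9 UMIs, against 114, 191 and 159. Neither antibody's values overlapped between the gates. CD106 averaged 7.45 ± 1.43 against 2.06 ± 1.06, and CD115 1.61 ± 0.475 against 7.57 ± 1.82 (SD, n = 3). MHCII did not separate the gates, at 571 ± 110 and 589 ± 183.

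With sums of at least 5 cells, chosen after the data were seen, 6 hashtags entered and CD24 averaged 304 ± 80.8 against 85.1 ± 46.7 UMIs (SD, n = 6), higher in 6 of 6. The exact p was 0.0313, the smallest for 6 pairs, and 0.0804 after adjustment over 18 antibodies, so none was called. Over single cells the median CD24 was 242.5 UMIs in Xcr1/Clec9a cells, 45 in Cd209a/Clec10a cells and 55.5 in cells of neither gate, and the median CD11b was 16, 110 and 53.5.

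**Figure D5:**
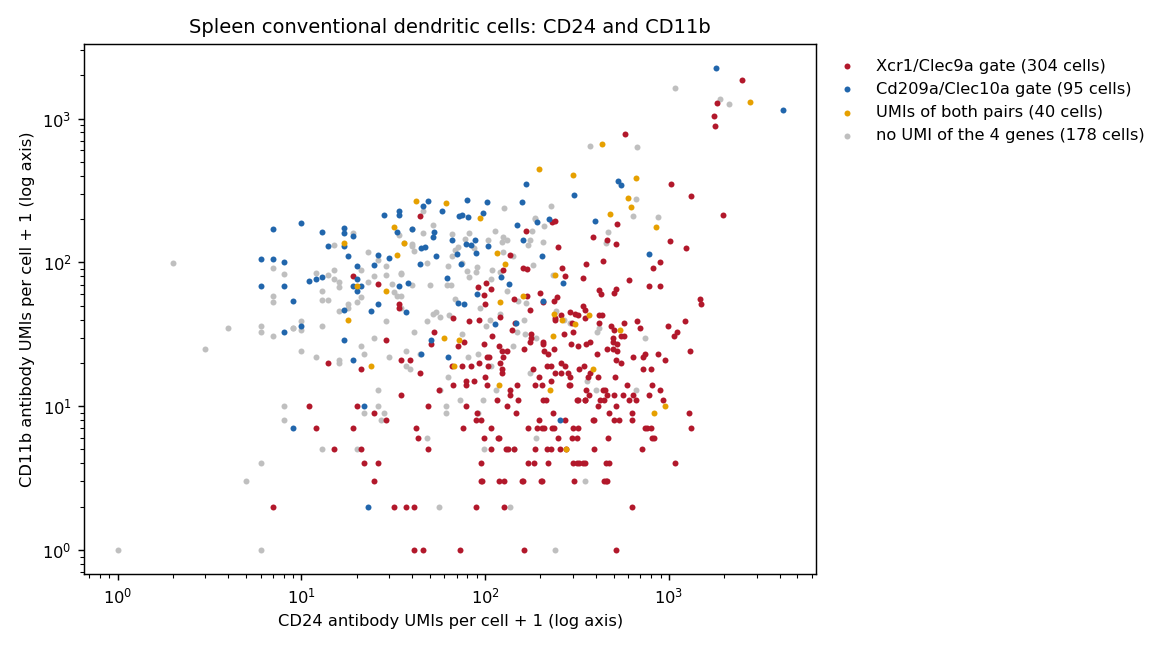
CD24 and CD11b antibody UMIs plus 1 of each spleen dendritic cell on log axes, coloured by gate; each point is 1 cell. Xcr1/Clec9a cells lie toward high CD24 and low CD11b (medians 242.5 and 16), Cd209a/Clec10a cells toward low CD24 and high CD11b (45 and 110).

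Protein and transcript were set side by side in the 616 members with antibody UMIs, as a description in which the values of a cell share its totals. Spearman's rho between a transcript's CPM and its antibody's share was 0.519 for Csf1r and CD115, 0.507 for Cd24a and CD24 and 0.439 for Itgam and CD11b. It was 0.253 for Kit and ckit, 0.146 for H2-Ab1 and MHCII and 0.0486 for Itga4 and CD49d. The antibodies CD24 and CD11b had a rho of -0.578 with each other, and the transcripts Irf8 and Sirpa -0.676.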

How the data were processed

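Single-cell RNA and surface-antibody libraries from spleen, blood, bone marrow and tumor were deposited as 1 table of UMI counts for 20012 cells, 32285 genes, 10 hashtags and 18 antibodies. The authors deposited raw counts, not normalized, made with Cell Ranger 7.0.1 against mm10, per the file headers and the submitters' processing notes; whether intronic reads were counted is not given in the sources used here. The barcode's number was read as the library in the order of the labels, which no source states. How doublets were treated is not given either, and no doublet caller was run; cells with several hashtags stayed out of the tests. A hashtag was assigned when it had at least 20 counts and at least 3 times the next, and each was taken as 1 mouse.

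Counts were summed per hashtag and class (at least 20 cells, 10 for the subtype gates). Genes with 100 or more UMIs over the sums were tested with edgeR 4.0.16 (quasi-likelihood, total gene UMIs as library sizes, hashtag as block, since both classes of a hashtag come from the same spleen; Benjamini-Hochberg over all genes tested), in R 4.3.3 with limma 3.58.1. Antibodies were compared as log2(mean UMIs per cell + 1) by exact sign-flip permutation, two-sided. Intervals are exact Clopper-Pearson and cover counting error only. Python 3.11.15 with numpy 2.4.6, scipy 1.17.1 and pandas 2.3.3 did the rest, and the tests were tried on simulated data. Alternatives were TMM factors, no block, DESeq2 1.42.0, a minimum of 10 UMIs, thinning to 2000 UMIs, stricter hashtags and rules, and leaving out each hashtag.

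The members and the gene lists (MHC class II and class I presentation, type 1, type 2 and all conventional dendritic cells, maturation, secreted factors, microbial receptors, C-type lectins, cytokine receptors, migration, transcription factors, interferon response, dissociation, cell cycle, and markers of plasmacytoid cells, monocytes, macrophages, neutrophils, B cells, T and NK cells, erythroid cells and progenitors) were chosen with earlier results of these data known. The genes named were the 12 largest called changes each way with a mean of at least 10 CPM, and members of these lists. Genes of the rules or gates that formed a comparison's groups stayed in its fit, but their tests are not reported. Promoter sequences are RefSeq's, build GRCm38.p6, which also gave the coordinates. Results for 2 of the genes, and for 1 antibody, are not reported here.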

Additional observations from a re-analysis of the deposited data

Results flagged for a closer look

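In 5 of 63 groups of hashtag values that were screened, 1 hashtag lay apart from the others by Dixon's criterion, which chance alone meets in about 1 of 20 groups. Among monocytes, hashtag 8 had the highest ckit antibody, at 4.52 mean UMIs per cell against 1.00 to 2.42 in the other hashtags, and the highest CCR2 antibody, at 3.48 against 0.450 to 1.54. In dendritic cells, hashtag 4 had 10.9 UMIs of CD115 against 1.70 to 3.72 in the others. Hashtag 2 had the lowest CD106 in dendritic cells, at 4.01 UMIs against 5.16 to 5.81, and hashtag 1 the highest CD14, at 4.83 against 1.69 to 2.93.

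Cells that met the dendritic cell rule were also present in the libraries outside the spleen. Blood held 67 (0.863% of its cells, 95% interval 0.669 to 1.09), bone marrow 21 (0.370%) and tumor 12 (2.60%). Of the 67 in blood, 25 were in the Xcr1/Clec9a gate and 16 in the Cd209a/Clec10a gate. None of the 12 in tumor had Xcr1 or Clec9a without Cd209a or Clec10a, and 5 were in the Cd209a/Clec10a gate.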

How the results depend on the processing

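Of 198 named genes called between dendritic cells and monocytes, 166 kept the call and its direction in every alternative that tested them, as did 82 of 120 between the gates and 12 of 14 antibodies. With cells thinned to 2000 UMIs fewer genes reached the minimum, and 529 were higher and 568 lower than in monocytes; between the gates 86 were higher and 78 lower. Between the gates DESeq2 called 234 and 322, a minimum of 10 UMIs gave 999 lower, and leaving out a hashtag gave 334 to 459 higher and 360 to 472 lower (334 and 360 without hashtag 3, 354 and 392 without hashtag 6). Without the replicate block, 1918 genes were higher and 1958 lower than in monocytes (1780 and 1856 of them shared with the blocked fit), and 442 and 521 between the gates. The share of higher genes among the calls against monocytes was 48.8%, and 54.6% without monocytes holding neutrophil or progenitor genes. In that alternative, chosen after seeing the data as were the sums of at least 5 cells, Cxcr2 (0.037), Il1r2 (0.20) and Wfdc21 (2.38) turned positive. Between the gates Stmn1 turned to -0.053 without cells of another class, Cxcl10 to 2.77 with gates of at least 2 UMIs, and Camp, Ngp and Ltf to -0.94, -1.56 and -1.28 with sums of at least 5 cells; the causes were not tested. Thinned, the gates held 31.3% and 8.67% of dendritic cells. The planned comparison with Siglech-high cells was not run, since 8 cells gave no sum of 10. Depth limits the gate shares and genes under 100 UMIs.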

Other observations

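Pooled over hashtags, dendritic cells of the same rule had Cadm1 at 319 CPM in spleen, against 48.3 CPM in blood and 28.7 CPM in bone marrow. Zbtb46 was at 148 CPM in spleen, against 65.5 CPM in blood and 45.0 CPM in bone marrow. H2-Ab1, a gene of the rule, was at 5773 CPM in spleen, against 4169 and 4127 CPM in blood and bone marrow. Lyz2 was at 1119 CPM in spleen, against 5039 CPM in blood and 7231 CPM in bone marrow. Cxcl9 was at 162 CPM in spleen, against 0 and 8.19 CPM in blood and bone marrow. Each organ was 1 library, so these values have no replicate and no test.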
